A study of Drosophila melanogaster with 8 samples.

Results

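Distal intergenic regions are stretches of accessible chromatin that lie far from every annotated gene. The peaks of 8 ATAC-seq libraries from Drosophila melanogaster embryos were merged wherever they overlapped by at least 1 bp, which gave 38522 regions on the main chromosome arms (2L, 2R, 3L, 3R, 4 and X). Of these, 1726 (4.48%) lay more than 5000 bp from the span of any gene in the RefSeq Release 6 gene table, and they are the regions described here. The other 36796 regions overlapped a gene or lay within 5000 bp of one.

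ATAC-seq uses the transposase Tn5 to insert adapters into open DNA, so that peaks of inserts mark accessible chromatin. Many enhancers of the genes that pattern the fly embryo lie in long intergenic stretches, some of them far from the promoter they act on, and pioneer factors such as Zelda open such sites around the onset of zygotic transcription. Intergenic DNA also fills much of the pericentromeric part of each arm, which is rich in repeats and is packed into heterochromatin as the early embryo develops.

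The libraries came from nuclei of whole embryos in 4 groups of 2, namely mutant embryos at 2.5 to 3 h, wild-type (WT) embryos at 2.5 to 3 h, mutant embryos at 1 to 1.5 h and WT embryos at 1 to 1.5 h. The study asks what IntS11, which carries the RNA-cleaving activity of the Integrator complex, does in the early embryo. Every library title, WT included, carries the words for a mislocalized IntS11, so assigning the mislocalization to the mutant alone is an inference, and neither the allele nor how it moves the protein is described in the labels. The libraries are called late (2.5 to 3 h) and early (1 to 1.5 h) from here on.

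The deposited lists held 15569 to 25201 peaks and give positions only, so the depth of sequencing is not known, and the absence of a peak is an absent call and no proof of closed chromatin. The libraries called 13639 to 23122 of the merged regions, and the early mutant libraries called the fewest. In 4 of 4 mutant libraries and no WT library a region inside IntS11 itself was called, and 4 of 4 WT libraries but no mutant library called a region at its end, so the genotype labels separated at that locus. The labels do not say whether replicates were separate collections of embryos, so the spread behind every p-value is that of the libraries and may be technical. In whole embryos, fewer cells with an open site and a less open site in each cell cannot be told apart.

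The members were short and clustered. Their median length was 283 bp, with quartiles of 189 and 436 bp, against 340 bp for the other regions. The distance to the nearest gene had a median of 9714.5 bp and reached 556119 bp. DNA more than 5000 bp from any gene made up 17.05 Mb, or 12.7% of the arms up to their last feature, and held 101 members per Mb. Arm 3L had the most members, 559 or 6.99% of its regions. Arm 2L held 300, 2R 291, 3R 357 and X 210, and 9 lay on chromosome 4. Arm 3L also had the most DNA that far from genes, 4.97 Mb. Per Mb of such DNA it held 112 members, against 123 on 2L, 115 on 3R, 85.2 on X and 72.6 on 2R. Chromosome 4 held 143 per Mb, but had only 0.063 Mb of such DNA. The nearest gene was protein coding for 65.9% of members and a long non-coding RNA for 25.6%. Members fell in 478 gaps between neighbouring genes, and 113 gaps with 5 or more members held 1027 of them (59.5%). Within a gap, neighbouring members had a median spacing of 1625.5 bp.

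At the limit, the nearest member was a region 5005 bp from ems, a homeobox gene of head patterning, that was called in all 8 libraries. The next members lay 5008 and 5012 bp away and were called in 4 libraries and 1 library. Just outside lay regions at 5000, 4998 and 4995 bp, called in 2, 2 and 1 libraries. The 133 regions up to 500 bp beyond the limit and the 171 regions up to 500 bp short of it had similar median lengths, 286 and 284 bp, and similar shares called in all 8 libraries, 12.8% and 13.5%.

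Many members were called in few libraries. In all 8 libraries 229 members (13.3%) were called, against 17.8% of all regions, and in exactly 1 library 561 (32.5%), against 28.0% of all regions. The replicates shared 65.2% of the distal regions either of them called in the late mutant, 75.9% in late WT, 46.8% in the early mutant and 56.7% in early WT. For the other regions these shares were 64.8%, 73.8%, 50.8% and 62.0%, so the early mutant lists were the least repeatable for both kinds of region.

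At the late window the mutant libraries called more distal regions than the WT libraries, with 880 and 800 in the mutant and 743 and 710 in WT. The means were 840 ± 56.6 in the mutant and 726.5 ± 23.3 in WT (SD, n = 2 each), a difference of 113.5. At the early window the order was the opposite, with 619 and 473 in the mutant and 874 and 770 in WT. The early means were 546 ± 103 in the mutant and 822 ± 73.5 in WT (SD, n = 2 each), a difference of -276. In neither window did mutant and WT libraries overlap.

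Exchanging 2 libraries with 2, the exact permutation test (two-sided) gave p = 0.33 in each window, which is the smallest p it allows. The difference between the windows, 389.5 regions, gave p = 0.056 in the exact permutation test with genotypes exchanged within windows, again the smallest p possible (adjusted p = 0.259 over 28 tests). None of these exact tests could therefore reach 0.05. The numbers depended on the length of the lists. When each list was cut to its 15569 widest peaks, as many as the shortest list holds, the early mutant called 6.5 more distal regions than WT on average, and the difference between the windows fell to 43.5 regions (exact permutation p = 0.278). Without the centromere-side ends of the arms and chromosome 4, described below, it was 246.5 regions (exact permutation p = 0.278).

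As a share of the regions a library called, distal regions made up 4.63% and 4.43% in the late mutant and 4.04% and 4.00% in late WT. In the early libraries they made up 3.79% and 3.47% in the mutant and 3.78% and 3.54% in WT. The shares separated the genotypes at the late window, where the difference was 0.51 percentage points (exact permutation p = 0.33), and overlapped at the early window, where it was -0.03 points (p = 1). The early difference turned to 0.253 points with equal list lengths and to 0.575 points where peaks had to cover at least 50% of a region, with no overlap in either case (exact permutation p = 0.33 each). Across both windows the share was 0.24 points higher in the mutant (exact permutation p = 0.222, adjusted p = 0.373).

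Place on the arm divided the members more clearly than genotype alone. The ends of the arms next to the centromere were taken as 2L from 22 Mb, 2R to 5.5 Mb, 3L from 23 Mb, 3R to 4.5 Mb and X from 22 Mb, together with all of chromosome 4, as approximate limits of the pericentromeric part. They held 435 of the 1726 members (25.2%) but 1507 of the other 36796 regions (4.10%). The split was looked at with the values per library already known.

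On the centromere side, the late mutant libraries called 251 and 233 members and the late WT libraries 105 and 98. The early mutant libraries called 160 and 125 and the early WT libraries 157 and 133. The means were 242 ± 12.7 in the late mutant and 101.5 ± 4.95 in late WT (SD, n = 2 each), against 142.5 ± 24.7 in the early mutant and 145 ± 17.0 in early WT. The late mutant libraries called more of these regions than any other library. Late WT was lowest in these lists but not under other settings. With equal list lengths, late WT called 81 and 77, the early mutant 126 and 125 and early WT 75 and 74. With peaks of at least 200 bp, late WT called 89 and 79, the early mutant 60 and 56 and early WT 89 and 80.

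Along the rest of the arms, which held 1291 members, the late mutant libraries called 629 and 567 and the late WT libraries 638 and 612. The late ranges overlapped, and the mean was 27 regions lower in the mutant. The early mutant libraries called 459 and 348 there and the early WT libraries 717 and 637. The late mutant excess over all members therefore lay at the centromere-side ends.

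Set against all regions called in the same library, centromere-side members made up 1.32% and 1.29% in the late mutant and 0.571% and 0.552% in late WT. In the early libraries they made up 0.979% and 0.916% in the mutant and 0.679% and 0.612% in WT. Every mutant library lay above every WT library, and the mean difference over both windows was 0.524 percentage points (exact permutation p = 0.056, the smallest possible, adjusted p = 0.389 over 35 tests of values by place). Members along the rest of the arms made up 3.31% and 3.14% in the late mutant and 3.47% and 3.45% in late WT, and 2.81% and 2.55% in the early mutant and 3.10% and 2.93% in early WT. Here every mutant library lay below both WT libraries of its window, with a mean difference of -0.283 points over both windows (exact permutation p = 0.056, adjusted p = 0.389). These directions were the same with peaks of at least 200 bp, with equal list lengths and with common limits on peak length and gap.

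The other regions at the centromere-side ends moved the same way, so the pattern was not that of distal regions alone. As a percentage of called regions, they were 0.717 points higher in the late mutant than in late WT and 0.548 points higher in the early mutant than in early WT. The early value fell to 0.0211 points with peaks of at least 200 bp (exact permutation p = 0.667) and to 0.193 points with common limits on peak length and gap, while the late value stayed between 0.651 and 0.717 points.

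**Figure D1:**
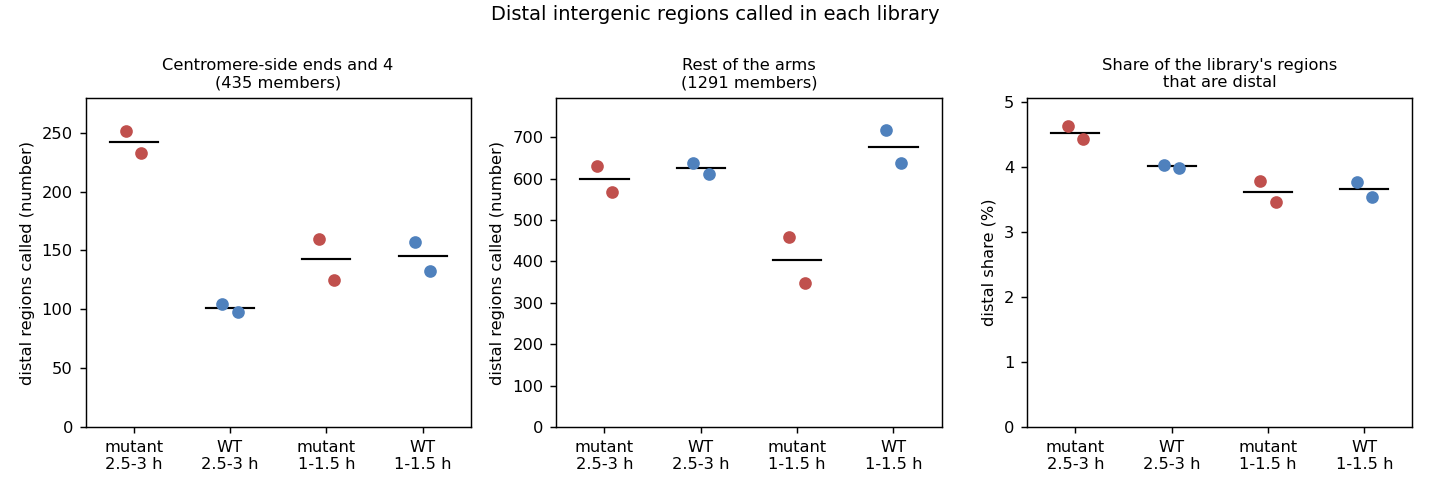
Distal intergenic regions called in each library (points, 2 per group) with the group mean (line), as a number at the centromere-side ends and chromosome 4 (left) and along the rest of the arms (middle), and as a share of all regions the library called in % (right). At the centromere-side ends the late mutant libraries (251 and 233) stand above all others and late WT (105 and 98) below (not so with equal list lengths or peaks of at least 200 bp), while along the rest of the arms the early mutant libraries (459 and 348) are lowest.

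The distal regions that were called were narrower in the mutant in both windows. The median peak length per region was 303 and 302.5 bp in the late mutant and 329 and 325 bp in late WT, and 179 and 195 bp in the early mutant and 252 and 250 bp in early WT. The mean difference over both windows was -44.1 bp (exact permutation p = 0.056, the smallest possible, adjusted p = 0.259). The other regions were narrower in the mutant too, with medians of 352 and 357 bp in the late mutant against 376 and 375 bp in late WT, and 210 and 211 bp in the early mutant against 300 and 292 bp in early WT. The shortest peak a list held also differed, from 100 bp in an early mutant library to 156 bp in a late WT library, and the widths depended on it in part. The mean difference over both windows in distal regions was -21.9 bp with common limits of 160 bp on peak length and gap and -20.5 bp with peaks of at least 200 bp (exact permutation p = 0.056 each). With equal list lengths it was -77.1 bp, and the late mutant and WT medians overlapped (exact permutation p = 0.667).

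Peaks in distal regions covered 317 and 290 kb in the late mutant and 285 and 270 kb in late WT. They covered 146 and 117 kb in the early mutant and 267 and 234 kb in early WT. The covered length moved with the number and the median width, and its difference between windows, 145 kb, gave an exact permutation p of 0.056 (adjusted p = 0.259). It was 80.8 kb with equal list lengths (exact permutation p = 0.056) and 87.4 kb without the centromere-side ends and chromosome 4 (exact permutation p = 0.33).

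**Figure D2:**
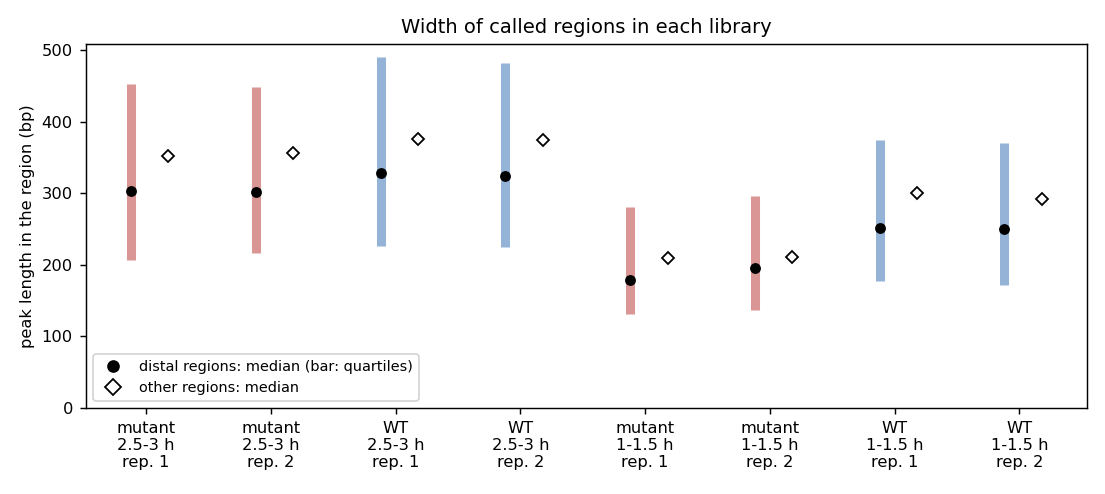
Peak length per called region in bp for each library, with the median (filled circle) and quartiles (bar) of distal regions and the median of the other regions (open diamond). In every library the distal median lies below the other median, from 179 against 210 bp in the first early mutant library to 329 against 376 bp in the first late WT library.

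Single regions were then classed. A region was lost in the mutant when both WT libraries of the window called it and neither mutant library did. It was gained where the reverse held and kept where all 4 libraries called it. At the late window 152 of the 663 distal regions called in both mutant libraries were gained (22.9%), against 13.1% over all regions. Of the 627 called in both late WT libraries, 90 were lost (14.4%), against 12.5% over all regions. There were 465 kept regions, and in 31.6% of them each mutant library had a shorter peak length than each WT library (39.4% over all regions) and in 21.3% a longer one (18.1% over all regions).

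At the early window 206 of the 595 distal regions that both WT libraries called were lost (34.6%), against 27.1% over all regions, and 51 of the 348 called in both mutant libraries were gained (14.7%), against 6.47%. Among 268 kept regions, peaks were shorter in the mutant by the same measure in 58.2%, against 67.4% over all regions, and longer in 8.21%, against 5.23%. Narrow regions were lost and gained more often than wide ones. Regions not distal, reweighted to the widths of the distal ones, were lost in 15.4% and gained in 15.3% at the late window, and lost in 31.2% and gained in 7.1% at the early window. The gained shares of distal regions remained above these values in both windows, whereas the late lost share, 14.4%, lay below its value. For members outside the centromere-side ends and chromosome 4, the late gained share was 13.6%, below 15.3%. The latter is weighted to the widths of all members.

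By place, 86 of the 176 centromere-side members called in both late mutant libraries were gained, or 48.9% (exact binomial 95% interval 41.3% to 56.5%, for counting error only and with regions taken as independent). Along the rest of the arms it was 66 of 487, or 13.6% (10.6% to 16.9%), close to the background of all regions. For regions that were not distal it was 19.7% at the centromere-side ends and 12.2% elsewhere. Late loss ran the other way, with 4 of 88 members (4.55%) at the centromere-side ends and 86 of 539 (15.96%) along the rest. Regions not distal had the same order, with 8.15% and 12.6%.

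Early loss was also less frequent at the centromere-side ends, with 22 of 101 members (21.8%) against 184 of 494 (37.2%) elsewhere. Early gain was 18 of 92 (19.6%) at the centromere-side ends and 33 of 256 (12.9%) elsewhere. Among the arms, the late gained share of members was 35.5% on X, 29.5% on 2R, 23.9% on 3L, 14.7% on 2L and 14.6% on 3R, and it was 0 of 3 on chromosome 4. Shares over all regions of each arm were not set beside these, so they do not tell members from other regions of the arm. On X, 10 of the 33 gained members lay in the ribosomal DNA gap described below, where read placement is uncertain.

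**Figure D3:**
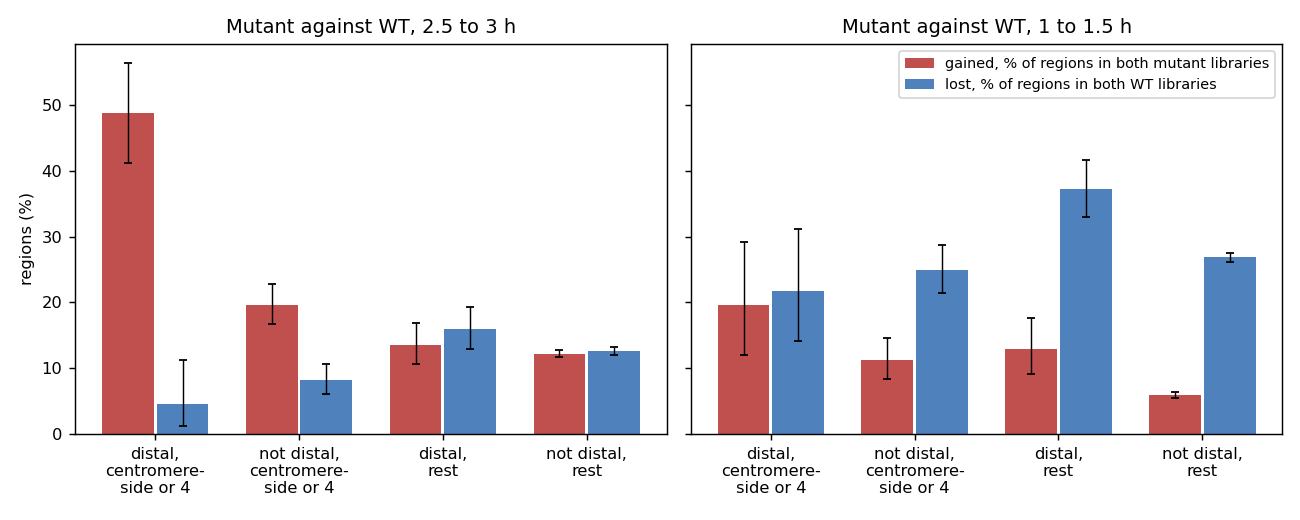
Share of regions gained (% of regions called in both mutant libraries of the window) and lost (% of regions called in both WT libraries) at 2.5 to 3 h (left) and 1 to 1.5 h (right), by distance class and place, with exact binomial 95% intervals that cover counting error only. Late gain among distal centromere-side regions, 48.9%, stands above the other classes, which run from 12.2% to 19.7%.

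Along the scale of distance from the nearest gene, the late gained share was 12.6% for regions overlapping a gene, 10.8% up to 1000 bp away, 11.9% from there to 2000 bp and 15.6% from there to 5000 bp. Among the members it was 17.7% up to 10000 bp and 28.3% beyond 10000 bp. These distance classes were not split by place on the arm. By place, late gain was 48.9% of centromere-side members and 13.6% of members along the rest of the arms. Distance and place are therefore mixed in this order. The late lost share showed no such order, running from 11.9% over genes to 17.3% between 2000 and 5000 bp and 14.5% beyond 10000 bp. Early loss was 25.9% over genes and between 31.6% and 38.4% at every other distance. Early loss therefore differed between gene and intergenic regions but not in step with distance.

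**Figure D4:**
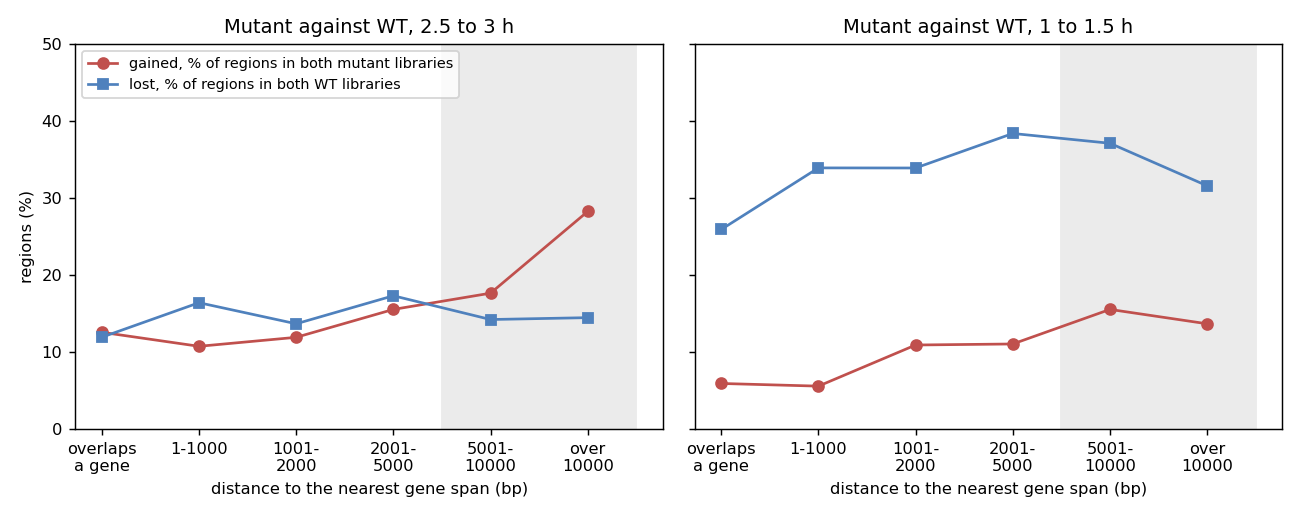
Share of regions gained and lost in the mutant (%) by distance to the nearest gene span in bp, at 2.5 to 3 h (left) and 1 to 1.5 h (right), with the distal classes shaded. The late gained share reaches 28.3% beyond 10000 bp, against 12.6% over genes, while early loss runs between 31.6% and 38.4% in all classes outside genes. The classes are not split by place on the arm.

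Late against early embryos showed how distal regions changed over time within each genotype. In the mutant, 230 of the 663 distal regions called in both late libraries were gained over time (34.7%), against 22.5% of all regions, and 36 of the 348 called in both early libraries were lost (10.3%), against 9.42%. In WT, 147 of the 627 called in both late libraries were gained (23.4%), against 14.9% of all regions, and 157 of the 595 called in both early libraries were lost (26.4%), against 24.8%. That lost share in WT lay above the share of all regions in only 4 of 10 alternatives. Of regions kept over time, peaks were longer in both late libraries for 83.3% in the mutant, against 80.6% over all regions, and for 50.4% in WT, against 49.2%. They were shorter for 4.44% in the mutant, against 1.68%, and for 16.5% in WT, against 15.7%. The share of called regions that were distal was higher in late than in early embryos in every library of each genotype, by 0.633 points over both genotypes (exact permutation p = 0.056, the smallest possible, adjusted p = 0.259). In WT, loss over time reached 39.6% at the centromere-side ends, 40 of 101 members, against 23.7% along the rest of the arms. In the mutant it was 21.7%, 20 of 92, against 6.25%. Regions that were not distal had the opposite order. Their loss over time in WT was 20.5% at the centromere-side ends and 24.9% elsewhere. In the mutant it was 7.64% and 9.46%. The genotypes have libraries in common with the comparisons of mutant and WT, so these counts are not independent of those above.

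Patterns over all 8 libraries were counted region by region. Both late mutant libraries and no other library called 86 members, 52 of them at the centromere-side ends, and both late WT libraries and no other called 35, none of them there. These patterns made up 1.66% and 1.68% of all regions, against 4.98% and 2.03% of members. All 4 mutant libraries and no WT library called 11 members (0.265% of all regions, 0.637% of members), and all 4 WT libraries and no mutant library called 28 (1.33% of all regions, 1.62% of members), 26 of them along the rest of the arms. All 4 late libraries and no early library called 38 members (1.43% of all regions, 2.2% of members), and all 4 early libraries and no late library called 14 (0.833% of all regions, 0.811% of members), of which 11 were at the centromere-side ends. Both early mutant libraries and no other called 13 members (0.459% of all regions, 0.753% of members), and both early WT libraries and no other called 85 (4.36% of all regions, 4.92% of members). Every library but the early mutant ones called 37 members (2.36% of all regions, 2.14% of members). The loss in the early mutant and gain in the late mutant of the same region was seen for 6 members (0.348% of members, 0.286% of all regions), and the reverse for none (0.0208% of all regions), both near the share of all regions.

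Gaps with many members could be followed as units. The largest count, 54 members, was in the first 567 kb of 3R before Myo81F, an unconventional myosin gene, where the late mutant libraries called 10 and 8, late WT 11 and 11, the early mutant 38 and 27 and early WT 30 and 29. This pericentromeric gap was called less in late embryos of both genotypes. It holds the members farthest from any gene, such as a region of 263 bp at 3R 10695 to 10957, with peaks of 225 and 253 bp in the early mutant and 222 and 199 bp in early WT and none in the 4 late libraries. A region at 27392 to 27793 of the same gap was called in all 8 libraries, with 300 and 315 bp in the late mutant, 292 and 339 bp in late WT, 372 and 372 bp in the early mutant and 397 and 402 bp in early WT.

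The second gap, with 42 members over 246 kb of X, lies between a 2S ribosomal RNA gene and mir-10404-5, in the ribosomal DNA. The late mutant libraries called 27 and 24 of them, late WT 10 and 9, the early mutant 22 and 18 and early WT 23 and 22. Ribosomal DNA occurs in near-identical copies, so the placement of reads in this gap is uncertain.

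On 2R, the gap between IntS3, which encodes another Integrator subunit, and Gprk1, a kinase of G protein-coupled receptors, spans 79.4 kb and holds 16 members. The late mutant libraries called 13 and 13 of them, late WT 3 and 2, the early mutant 8 and 4 and early WT 6 and 5. Of these, 9 were gained in the late mutant. The widest member of the gap, 2R 4297135 to 4298066, lay 24229 bp from Gprk1 and had peaks of 219 and 194 bp in the late mutant, none in late WT, 359 and 466 bp in the early mutant and 670 and 529 bp in early WT. A member at 4309295 to 4310066 was called everywhere, with 772 and 729 bp in the late mutant and 709 and 706 bp in late WT, so the whole gap was not shifted alike.

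The 113 gaps with 5 or more members were compared by the number of members each library called. At the late window both mutant libraries called more than both WT libraries in 27 gaps (23.9%) and fewer in 27 gaps (23.9%). Of the 27 gaps at the centromere-side ends, 20 were higher in the mutant and 1 lower, and of the 86 gaps elsewhere 7 were higher and 26 lower. At the early window the mutant was higher in 4 gaps (3.54%) and lower in 50 (44.2%), with 46 of the lower ones along the rest of the arms. The early mutant libraries called fewer regions of every kind, 14992 on average against 22426 in early WT. The gap counts were not repeated with equal list lengths, so the early counts do not set these gaps apart from other regions.

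Genes that pattern the embryo had many members beside them. Of 98 genes listed as early patterning genes, 95 matched the table, and 43 of the 51 gaps over 10000 bp beside them held members (84.3%), against 46.3% of the other such gaps. These gaps held 224 members. For 115 developmental transcription factors, of which 109 matched, it was 41 of 57 gaps (71.9%) and 195 members. For 117 neuronal adhesion and channel genes, all matched, it was 22 of 64 gaps (34.4%) and 51 members, and for 51 signalling ligands and receptors, of which 49 matched, 10 of 18 gaps (55.6%) and 40 members. The lists share genes, so some members count for several of them. A longer gap has more DNA over 5000 bp from any gene, and these shares are not adjusted for gap length. Whether gap length alone gives the differences between lists was not tested.

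At the late window 3 of 89 members beside patterning genes were gained (3.37%) and 15 of 109 lost (13.8%), and at the early window 41 of 98 were lost (41.8%) and 5 of 47 gained (10.6%). The late gained share thus lay below that of all regions and the early lost share above it. All members along the rest of the arms had an early lost share of 37.2% and a late gained share of 13.6%. The early lost share beside patterning genes was therefore nearer to that of such members than to the 27.1% of all regions. Only 2 of the 224 members lay at the centromere-side ends. Members beside developmental transcription factors had shares of the same order, with 5 of 85 gained late (5.88%) and 33 of 87 lost early (37.9%). Against 13.1% of all regions gained late and 27.1% lost early, the shares beside signalling genes were 1 of 20 (5%) and 3 of 16 (18.75%), and beside neuronal genes 6 of 16 (37.5%) and 10 of 19 (52.6%). Late loss beside neuronal genes was 6 of 19 (31.6%), against 12.5% of all regions, and 11 of the 51 neuronal members lay at the centromere-side ends. These last counts are small.

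The patterning genes with the most members were mirr, an Iroquois homeobox gene, with 23, the segment polarity gene en with 18, the Sox gene SoxN with 17, the head gap gene ems with 16 and fkh, a forkhead factor of the gut and salivary gland, with 15. Beside en, the late mutant libraries called 9 and 8 members, late WT 11 and 11, the early mutant 5 and 5 and early WT 14 and 15. Beside fkh, the late mutant libraries called 8 and 7, late WT 11 and 12, the early mutant 5 and 5 and early WT 10 and 9. Both genes had fewer called members in every mutant library than in the WT libraries of the same window. The early mutant lists were shorter throughout, with 39.3% of the other regions called on average against 58.7% in early WT. The early counts beside these genes were not adjusted for that. Late, 26 of the 86 gaps of 5 or more members along the rest of the arms were also lower in the mutant and 7 higher. Beside mirr the ranges overlapped late, with 11 and 14 in the mutant and 14 and 13 in WT, and the early mutant called 12 and 5 against 13 and 14 in early WT. Beside SoxN the late ranges also overlapped, with 8 and 6 in the mutant and 9 and 6 in WT, and the early mutant called 6 and 5 against 10 and 9 in early WT. Beside ems the late mutant libraries called 8 and 8 members and late WT 9 and 11, and the early mutant 6 and 6 and early WT 9 and 9.

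Among the other lists, the POU factor gene vvl had 17 members, the Sox gene D 9, the neighbouring homologues bab1 and bab2 8, the Toll-family receptor genes 18w and Toll-6 9 and 8, the ligand gene wg 8 and its fellow segment polarity gene ptc, a Hedgehog receptor, 8. Beside wg the late mutant libraries called 4 and 3 members and late WT 5 and 5, and the early mutant 3 and 3 and early WT 5 and 5. Every mutant library thus called fewer members beside wg than the WT libraries of its window. Here too the early counts were not adjusted for the shorter early mutant lists. Beside 18w the early mutant libraries called 2 and 1 members and early WT 5 and 7, while the late counts were 4 and 1 in the mutant and 3 and 4 in WT.

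Within the 49.3 kb between en and tou, which hold 17 members, 4 were called in all 8 libraries. A member at 2R 11546591 to 11547216 was among them, with 621 and 538 bp in the late mutant, 586 and 583 bp in late WT, 482 and 409 bp in the early mutant and 380 and 437 bp in early WT. In contrast, a member at 11552926 to 11553379 was called only in early WT, with 309 and 411 bp. A member at 11551861 to 11552394 was called in late embryos of both genotypes only, with mutant peaks of 476 and 473 bp and WT peaks of 384 and 239 bp. A single gap therefore held members that were shared, early in WT alone, or late in both genotypes.

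The gap between oc (orthodenticle), a head gap gene, and Rubicon on X had no called member in any mutant library. Of its 6 members, 2 and 1 were called in late WT and 6 and 4 in early WT. The 5 members between CG33262 and snky on 3L were likewise called in no mutant library, with 1 and 1 called in late WT and 3 and 2 in early WT. The member at X 8660356 to 8660689 had peaks of 274 and 0 bp in late WT and 307 and 334 bp in early WT, where 0 means not called. The member at 8665953 to 8666209 had 250 and 257 bp in late WT and 195 and 0 bp in early WT. The gaps of oc, CG33262, IntS3 and mir-219 were chosen after their values were seen.

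The reverse held between lncRNA:CR45436 and mir-219, a microRNA gene, on 3L. The gap spans 39.5 kb and holds 11 members, of which the late mutant libraries called 7 and 7 and the early mutant 6 and 5, while no WT library called any. The member at 3L 17296863 to 17297588 had 472 and 726 bp in the late mutant and 184 and 229 bp in the early mutant. The member at 17303814 to 17304286 had 451 and 444 bp in the late mutant and 240 and 249 bp in the early mutant. These members belong to a run of 17 neighbouring regions over 45.02 kb, 17275242 to 17320262, in which WT had no peak in any of its 4 libraries. Another such run, 20 regions over 69.2 kb of X, held no member.

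**Figure D5:**
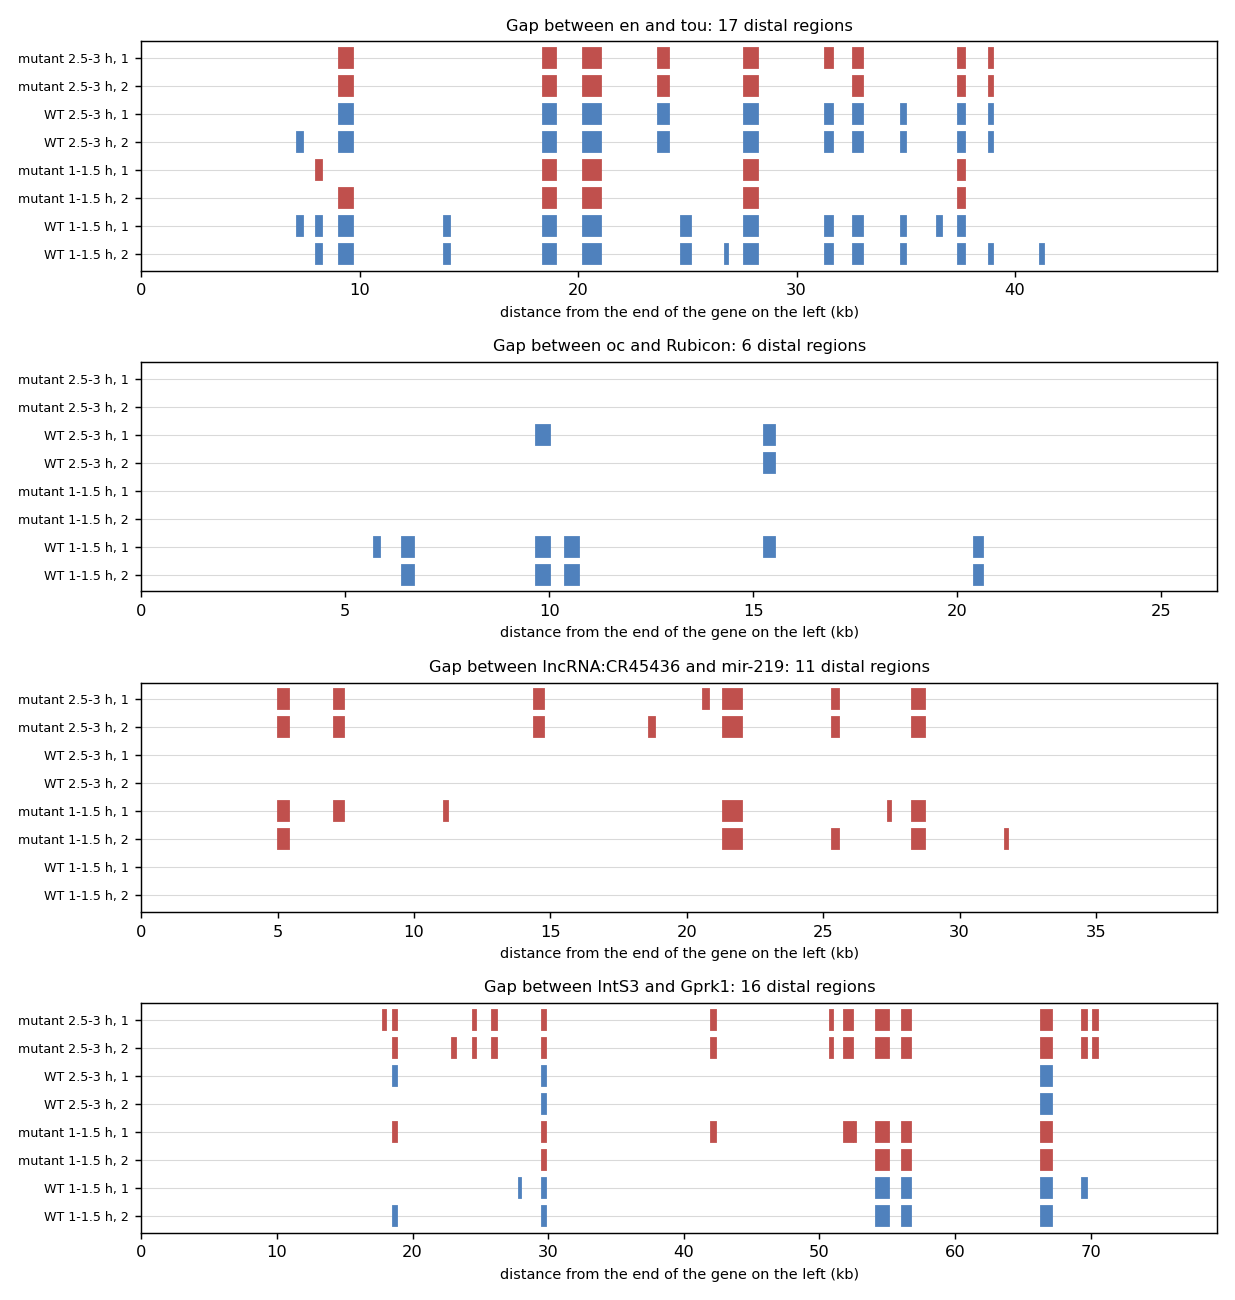
Distal regions called in each library (a row per library, drawn at the limits of the merged region) along 4 gaps between genes, by distance in kb from the end of the gene on the left. Between oc and Rubicon no mutant library called any of 6 regions, between lncRNA:CR45436 and mir-219 no WT library called any of 11, and between IntS3 and Gprk1 the late mutant libraries called 13 each against 3 and 2 in late WT.

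The widest regions called in all 8 libraries showed how steady some distal sites were. A member of 1522 bp at 3L 5856063 to 5857584, 10399 bp from vn, the gene of an EGF receptor ligand, had peaks of 1421 and 1462 bp in the late mutant, 1485 and 1476 bp in late WT, 1087 and 1056 bp in the early mutant and 1140 and 1270 bp in early WT. A member at 2R 5741546 to 5742773, 14021 bp from ap (apterous, a LIM homeobox gene), had 1140 and 966 bp in the late mutant, 1041 and 1112 bp in late WT, 237 and 408 bp in the early mutant and 1208 and 1181 bp in early WT. The early mutant peaks there were shorter than those of the 6 other libraries. Close by, at 5735616 to 5736970 and 8091 bp from ap, a member had 525 and 627 bp in the late mutant and 720 and 754 bp in late WT, and 708 and 1198 bp in early WT, but was not called in the early mutant.

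Of the widest members gained in the late mutant, 4 of 5 lay at the centromere-side ends. The widest, 2R 5108035 to 5109788, 7202 bp from gus, which encodes a SOCS-box protein of the germline, had 1251 and 1584 bp in the late mutant and 552 and 458 bp in the early mutant and was called in no WT library. A member at 3L 23060804 to 23061734 in the gap between nrm and RpL10 had 910 and 622 bp in the late mutant and was called in no other library. The member outside those ends, 2R 24655764 to 24656438, 5065 bp from CG3663, had 675 and 667 bp in the late mutant and was called nowhere else.

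The widest members lost in the late mutant lay along the rest of the arms. A member at X 21567784 to 21568457, 15345 bp from lncRNA:CR44711, had 634 and 674 bp in late WT and 324 and 313 bp in early WT and was called in no mutant library. A member at 3L 12726054 to 12726667, between mirr and SmD1, had 558 and 526 bp in late WT, 306 and 206 bp in early WT, and 159 and 0 bp in the early mutant. A member at 3L 14155044 to 14155568, 19942 bp from lncRNA:CR45887 and 20042 bp from D, was called in late WT only, with 513 and 519 bp. Among the members called in all WT and no mutant library was 2R 13029570 to 13030107. It lay 14588 bp from CG13323 and 21659 bp from the Polycomb-group gene Su(z)2. Its peaks were 411 and 398 bp in late WT and 470 and 508 bp in early WT.

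The widest members gained over time in WT included sites beside segmentation genes. A member at X 20724572 to 20725350 lay 9105 bp from CG1324 and 27251 bp from the pair-rule gene run. It had 189 and 191 bp in the late mutant, 779 and 748 bp in late WT and no peak in an early library. A member at 3L 8665985 to 8666815, 8944 bp from the pair-rule gene hry (hairy), had 391 and 354 bp in the late mutant, 831 and 549 bp in late WT and none in early embryos. A member at 3L 12443391 to 12444125 between the Pax genes toe and eyg had 522 and 355 bp in the late mutant, 735 and 637 bp in late WT and none in early embryos. These 3 sites were picked for wide late WT peaks, which favours shorter mutant peaks. Late mutant peaks there were shorter than late WT peaks in both libraries, as in 39.4% of all regions kept at the late window. A member at 3L 27102601 to 27105160, at a centromere-side end, went the other way, with 1913 and 2523 bp in the late mutant, 1022 and 865 bp in late WT, 358 and 358 bp in the early mutant and none in early WT.

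Other members had peaks in early embryos and none in late ones. A member at 3R 261283 to 262007, before Myo81F, was called in no late library, with 134 and 185 bp in the early mutant and 725 and 553 bp in early WT. A member at 2R 16070595 to 16071131, 5251 bp from mir-137, was called in early WT only, with 480 and 491 bp. A member at 2L 14568769 to 14569172, 5043 bp from CG3473, had no late peak in either genotype, with 214 and 343 bp in the early mutant and 352 and 377 bp in early WT. At the members near Myo81F and CG3473 both early mutant peaks were shorter than both early WT peaks, as in 67.4% of all regions kept at the early window. The member near Myo81F was picked for wide early WT peaks, which favours this.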

How the data were processed

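Accessible chromatin was measured by ATAC-seq in 8 libraries of whole Drosophila embryos, grouped by their titles. The authors deposited 1 list per library with the chromosome, start and end of each peak, so peaks were called per library. The deposited positions carry no other unit (no count, fold or p-value), so depth is unknown. The submitters' processing notes name Trimmomatic 0.39, Bowtie2 2.2.5, SAMtools 1.18, MACS2 2.2.7.1, deepTools 3.5.1 and the dm6 build. Their settings, such as the Tn5 shift, duplicates and reads that map to several places, were not given in these sources. Every list had its own shortest peak, 100 to 156 bp.

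Peaks overlapping by 1 bp were merged and measured against the RefSeq Release 6 gene table (17872 genes), the assembly of dm6. Coordinates are dm6, 1-based. A region beside a gene that this table lacks would count as distal. A region's width in a library is the summed peak length in it. Python 3.11.15, pandas 2.3.3, NumPy 2.4.6, SciPy 1.17.1 and Matplotlib 3.10.9 were used.

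Number, share, covered length and median width per library were compared by two-sided exact permutation tests over libraries, in 7 contrasts, with Benjamini-Hochberg adjustment over 28 tests. The 35 tests of values split by place were added after seeing the data and adjusted among themselves. The scripts were tested on simulated data. Whether the replicate numbers pair the libraries is not known (sensitivity section). The members, gene lists and tests were chosen with earlier results of these data known. Regions named are the 5 farthest from a gene, the 8 widest called everywhere, the 5 widest lost and gained per comparison, members called in 1 genotype only (up to 8), the 5 fullest gaps and, per gene list, the 5 neighbours with most members, from which the text takes some. The limits of the centromere-side ends are approximate. No sequence is shown, since no genome was used here.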

Additional observations from a re-analysis of the deposited data

Results flagged for a closer look

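The number of distal regions called differed between mutant and WT in opposite directions in the windows. Mutant minus WT was 113.5 at 2.5 to 3 h and -276 at 1 to 1.5 h, a difference of 389.5 regions (exact permutation p = 0.056, adjusted p = 0.259). The same 389.5 regions separate the change over time, late minus early, which was 294 in the mutant and -95.5 in WT. The covered length of distal regions differed between the windows in the same way, by 145 kb. With equal list lengths the early difference in number became 6.5, the difference between windows 43.5 regions (exact permutation p = 0.278) and the change over time in WT 102.5, so the opposite directions did not hold there. The difference in covered length became 80.8 kb.

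Of the members, 6 were lost in the mutant at 1 to 1.5 h and gained in it at 2.5 to 3 h (0.348% of members, near the 0.286% of all regions), and 0 did the reverse, against 0.0208% of all regions. A difference between windows at single regions was not tested. Among the 6 was X 2434994 to 2435381, 6027 bp from the gap gene gt (giant), with 256 and 181 bp in the late mutant and 314 and 204 bp in early WT and no peak in the other 4 libraries. Of the others, 4 lay at the centromere-side ends.

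Peaks on the Y chromosome, which has no place in the comparisons, averaged 11.5 in the late mutant, with 13 and 10 against 8 and 8 in late WT. The early mutant had 13 and 12 and early WT 13 and 7. The difference was not tested.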

How the results depend on the processing

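The lists give positions only, so each result rests on what the authors' caller passed, and depth limits every statement on a missing region to an absent call. Exact tests of 2 against 2 libraries could not pass 0.05, so no call was kept or lost. The gained share of distal regions lay above that of all regions in all 4 comparisons under each of 10 alternatives and 8 omissions of a library. Omitting a library that a comparison does not use could not change its shares. Without the centromere-side ends and 4, the late gained shares were close, 13.6% of distal regions and 12.3% of all regions. The lost share was less steady. It lay above that of all regions in 8 of 10 alternatives late and early, in 7 over time in the mutant and in 4 over time in WT.

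With equal list lengths, mutant minus WT became 6.5 regions early and 28.25 over both windows, the early share 0.253 points, and late minus early in WT 102.5 regions. Early lost regions became 95, early gained 81 and lost over time in WT 66. With peaks of at least 200 bp, late minus early in WT became 78 regions. Early gained became 9 and early kept 147, and over time lost became 7 in the mutant and 77 in WT and kept 155 in the mutant. With common limits of 160 bp, late minus early in WT became 47.5 regions. Early gained became 20 and early kept 178, and over time lost became 11 in the mutant and 97 in WT. With peaks covering at least 50% of a region, the early share difference became 0.575 points, early gained 21, early kept 110, and over time in the mutant gained 354 and kept 116.

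Beyond 10000 bp the early share difference became 0.0683 points. Late lost, gained and kept were 41, 93 and 212, early 85, 23 and 128, over time in the mutant 22, 122 and 139, and over time in WT 74, 70 and 177. Beyond 2000 bp the share difference over both windows became -0.0202 points. Late lost, gained and kept were 186, 229 and 838, early 406, 82 and 482, over time in the mutant 58, 364 and 535, and over time in WT 284, 270 and 749. With distance to protein-coding genes only, late lost and kept were 159 and 800, early lost and kept 350 and 489, kept over time in the mutant 527, and over time in WT lost, gained and kept 255, 228 and 704. These settings change how many regions count as distal.

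Without the centromere-side ends and 4, the late difference became -27 regions, -21.9 kb and -0.189 points of share, and the share difference over both windows -0.257 points. Early gained became 33, late gained 66, and over time in the mutant lost 16 and gained 149. With these ends alone, an alternative chosen after seeing the data, mutant minus WT over both windows became 69 regions and 18.9 kb and the early share difference 3.41 points. Late minus early in WT became -7.49 kb and -4.41 points of share, and over both genotypes -1.45 points. Late lost, gained and kept were 4, 86 and 75, early 22, 18 and 63, over time in the mutant 20, 81 and 65, and in WT 40, 23 and 55. Leaving out the gap beside mir-219, also chosen after seeing the data, changed no direction.

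With each library left out in turn, the early share difference ran from -0.194 to 0.125 points and turned positive without the first early WT library (0.0841) and the second early mutant library (0.125). A class asks less with 1 library fewer, so its count can only grow. Early lost ran from 206 to 411, with 335 without the first and 411 without the second early WT library. Early gained ran from 51 to 178, with 108 without the first and 178 without the second early mutant library. Late lost ran from 90 to 158, with 139 without the first late mutant and 158 without the second late WT library. Late gained ran from 152 to 296, with 248 without the first and 296 without the second late mutant library. Over time in WT lost ran from 157 to 355, with 276 without the first and 355 without the second early library. Over time in the mutant, lost ran from 36 to 171, with 95 and 171 without the first and second early library, and gained from 230 to 400, with 400 without the second late library.

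Over all 1726 members, the deviations of libraries with the same replicate number had correlations between -0.0457 and 0.0343. Only 33 to 91 members deviated in both groups, and the other members add little to the correlation. Such small values therefore cannot show whether the replicate numbers pair the libraries. With the replicate block (exchange only between libraries of the same number), mutant minus WT remained 389.5 regions apart between windows. Its exact permutation p became 0.125, the smallest the block allows, against 0.056, and single windows could not go below 0.5. The block restricts only which exchanges are counted, so the differences themselves could not change.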

Other observations

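Further neighbours from the gene lists showed several kinds of change, given here as counts of called members in the late mutant, late WT, early mutant and early WT libraries. They were chosen after their counts were seen, and the early counts were not adjusted for the shorter early mutant lists. Beside the gap gene kni, 14 members gave 5 and 6 in the late mutant, 7 and 8 in late WT, 4 and 0 in the early mutant and 6 and 5 in early WT. Beside hkb, a terminal gap gene, both members were absent from the early mutant lists and called in both early WT libraries, and the late libraries called 1 and 2 in the mutant and 2 and 2 in WT. Beside B-H2, a homeobox gene of the Bar pair, 8 members gave 7 and 7 in the late mutant and 7 and 7 in late WT, and 4 and 4 in the early mutant and 6 and 7 in early WT, so the genotypes were apart early and equal late.

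Members beside Lim1 and nAChRalpha4 were called more often in the late mutant. Beside Lim1, a LIM homeobox gene on X, 7 members gave 6 and 5 in the late mutant, 2 and 2 in late WT, 3 and 2 in the early mutant and 2 and 2 in early WT, and 3 of them were gained in the late mutant. Beside nAChRalpha4, which encodes a nicotinic acetylcholine receptor subunit, 6 members gave 4 and 4 in the late mutant, 1 and 0 in late WT, 1 and 1 in the early mutant and 1 and 1 in early WT. This gene lies at the centromere-side end of 3L. Over all such ends, the late mutant libraries called more members than late WT. Beside disco, a zinc finger gene on X, 8 members gave 7 and 6 in the late mutant, 7 and 6 in late WT, 5 and 5 in the early mutant and 4 and 6 in early WT, and the genotypes overlapped in both windows.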
